A study of Mus musculus with 44 samples.

Results

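The mitochondrial respiratory chain and ATP synthase were followed as 94 nuclear genes out of 18193 genes with a single annotated symbol on the array. A gene was a member when its symbol began with Ndufa, Ndufb, Ndufc, Ndufs, Ndufv, Sdha, Sdhb, Sdhc, Sdhd, Uqcr, Cox4, Cox5, Cox6, Cox7, Cox8 or Atp5, and no measured value entered that rule. The members comprised 34 genes of complex I, 4 of complex II, 8 of complex III, 19 of complex IV and 17 of ATP synthase. The same prefixes also caught 12 assembly factors (Ndufaf1 to Ndufaf8 and Sdhaf1 to Sdhaf4), which help to build complexes I and II but are not subunits, and these were kept apart. Ndufa4 and Ndufa4l2 carry complex I names and were counted with complex IV, where the Ndufa4 protein resides. Where several probe sets carried a gene's symbol, the one brightest on average across all 44 arrays stood for the gene.

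The samples came from B6C3F1 mice given 2-butoxyethanol (2BE), a glycol ether solvent known to cause haemolysis in rodents, or vehicle. Liver at 4 h was represented by 3 vehicle and 4 2BE arrays, spleen at 4 h by 4 and 4, liver at 7 d by 4 and 5, and bone marrow and spleen at 7 d by 5 and 5 each. Tissue was a piece of the liver's left lateral lobe, marrow from the right humerus and a part of a spleen cross-section, taken after cervical dislocation under ketamine and acepromazine anaesthesia in every group. The sample titles name the arms 2BE and vehicle, whereas the treatment field of the same samples reads reduced oxygen and control; the arms were taken from the titles, and dose, route, sex and age were not given in the sources used here. Nothing in the labels says that replicates of a group came from separate mice, so p-values measure the spread between these samples, which may be technical. How precise any value can be is set by these numbers of arrays.

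Complex I (NADH dehydrogenase) and complex II (succinate dehydrogenase) pass electrons to ubiquinone, complex III passes them on to cytochrome c and complex IV (cytochrome c oxidase) hands them to oxygen. Complexes I, III and IV pump protons out of the matrix, and ATP synthase uses the returning protons to make ATP. Several complex IV subunits exist as pairs of a ubiquitous isoform and an isoform largely restricted to testis, muscle or lung. Maturing red cell precursors rely on mitochondria for haem synthesis and discard them when they mature, while liver cells are rich in mitochondria throughout.

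Promoters of 4 members on which the results below turn are shown first. They are Cox6b2 and Cox6b1, the pair of isoforms that parted most, Uqcr11, the complex III subunit with the largest rise, and Sdhaf1, the member with the largest fall. Each run is 300 bases of RefSeq sequence (build GRCm38.p6), 5′ to 3′ on the strand of the gene, which is the minus strand for all 4, from 250 bases before the annotated start to 50 after it. Capitals mark a motif of NRF1 (GCGCATGCG) or of the ETS family, which includes GABP (CCGGAAG), on either strand; both families are known regulators of respiratory chain genes. The windows are chr7:4753045-4753344 for Cox6b2, chr7:30626065-30626364 for Cox6b1, chr10:80406772-80407071 for Uqcr11 and chr7:30322326-30322625 for Sdhaf1.
Cox6b2: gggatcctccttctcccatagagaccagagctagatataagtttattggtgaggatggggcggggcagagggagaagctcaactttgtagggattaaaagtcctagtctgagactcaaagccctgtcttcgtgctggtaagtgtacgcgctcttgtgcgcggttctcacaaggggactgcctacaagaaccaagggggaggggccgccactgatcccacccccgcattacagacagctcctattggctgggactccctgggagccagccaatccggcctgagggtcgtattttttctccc
Cox6b1: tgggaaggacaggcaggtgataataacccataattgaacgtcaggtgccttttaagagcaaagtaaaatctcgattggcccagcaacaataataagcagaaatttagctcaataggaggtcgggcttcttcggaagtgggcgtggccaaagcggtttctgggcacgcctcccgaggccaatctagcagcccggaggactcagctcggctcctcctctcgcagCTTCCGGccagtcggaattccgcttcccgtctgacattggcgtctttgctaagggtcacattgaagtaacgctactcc
Uqcr11: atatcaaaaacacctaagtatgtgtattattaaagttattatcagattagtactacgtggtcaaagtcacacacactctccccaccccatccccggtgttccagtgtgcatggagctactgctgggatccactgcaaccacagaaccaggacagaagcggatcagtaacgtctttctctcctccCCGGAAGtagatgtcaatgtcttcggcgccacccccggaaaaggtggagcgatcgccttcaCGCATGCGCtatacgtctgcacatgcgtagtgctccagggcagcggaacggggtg
Sdhaf1: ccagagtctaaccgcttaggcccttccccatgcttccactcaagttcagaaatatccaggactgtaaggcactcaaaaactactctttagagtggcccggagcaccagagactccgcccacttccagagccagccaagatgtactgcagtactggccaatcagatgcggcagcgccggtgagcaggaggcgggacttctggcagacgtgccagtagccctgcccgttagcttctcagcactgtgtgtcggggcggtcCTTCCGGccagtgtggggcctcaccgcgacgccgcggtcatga

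In these windows Cox6b2 held neither set of letters, Cox6b1 held the ETS letters beginning at position -28 from the start, Uqcr11 held the ETS letters at -66 and the NRF1 letters at -5, and Sdhaf1 held the ETS letters at 7. A promoter was found for 78 of the 94 members by gene ID. The NRF1 letters were present in 9 of these 78 genes (11.5%) and in 1.95% of the 27025 genes with a promoter of the same length. The ETS letters were present in 22 of the 78 (28.2%) against 9.93% of all genes. YY1 letters (AAGATGGCG) were present in 7 members (8.97%, against 1.64%), the ERR letters (AAGGTCA) in 8 (10.3%, against 5.38%), and the GATA letters (AGATAA), bound by the erythroid factor GATA1 among others, in 6 (7.69%, against 12.7%). Every motif was searched on both strands, and occurrences of different motifs were allowed to overlap.

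The 5 tissue and time sets differed widely in how many members changed. In the liver no member passed the test at 4 h or at 7 d, in the spleen at 4 h 2 were higher and 1 lower with 2BE, in the bone marrow at 7 d 6 were higher and 1 lower, and in the spleen at 7 d 29 were higher and 18 lower. Differences are 2BE minus vehicle on the log2(value + 1) scale of the deposited intensities, each given with its standard error (SE), and a gene was called when its limma p, adjusted by the Benjamini-Hochberg method over all 18193 genes, was under 0.05. Over all genes tested, 4.51% were called in the liver at 4 h and 0.748% in the liver at 7 d, in either direction; with same-numbered 4 h liver arrays fitted as pairs (replicate block), the 4 h share was 2.59% (471 genes). The spleen at 4 h had 3.31% of all genes called higher and 1.85% lower, the bone marrow 9.40% higher and 10.7% lower, and the spleen at 7 d 32.4% higher and 32.0% lower. The share of members called was thus close to or below that of all genes in every set: in the spleen at 7 d, 30.9% of members were called higher and 19.1% lower. The median difference of the members was 0.02 in the liver at 4 h (all genes -0.02), 0.04 in the spleen at 4 h (-0.03), -0.01 in the liver at 7 d (-0.001), 0.01 in the marrow (0.01) and 0.08 in the spleen at 7 d (0.05).

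**Figure D1:**
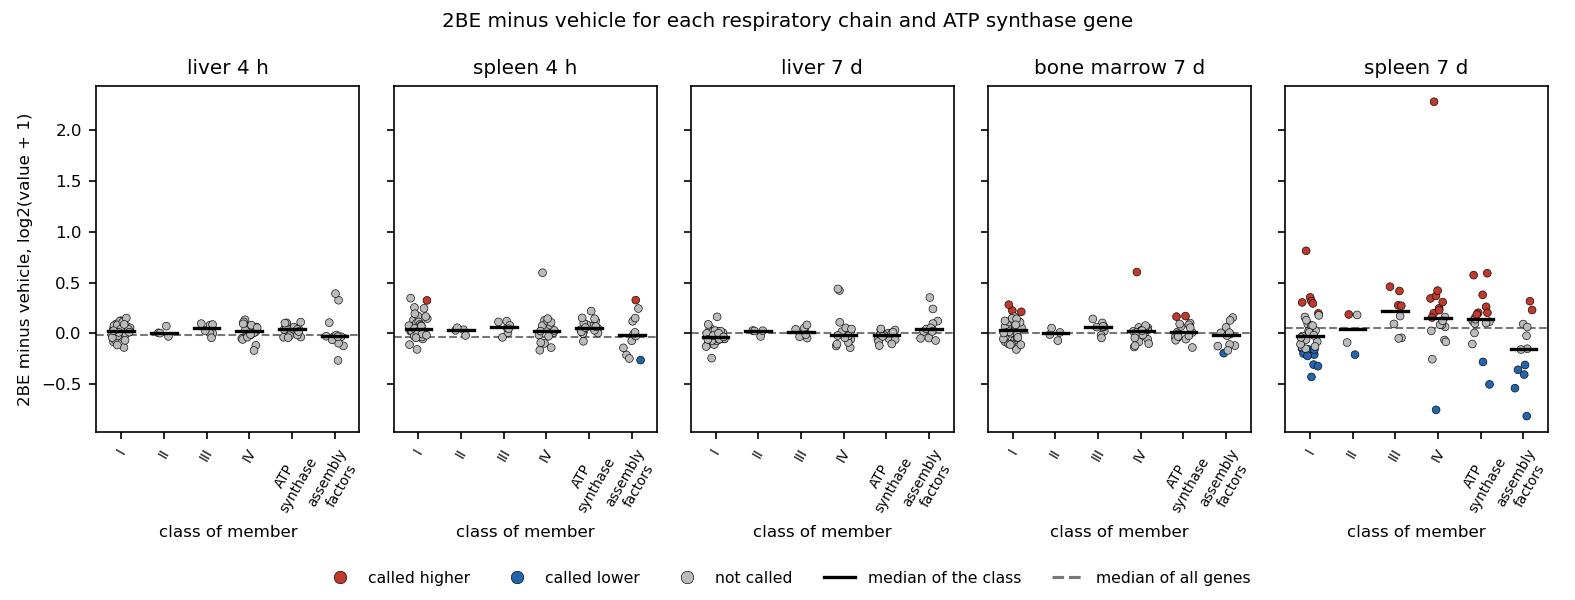
Differences of the 94 members, 2BE minus vehicle on the log2(value + 1) scale, in the 5 tissue and time sets. Each point is 1 gene, red when called higher and blue when called lower; solid bars are class medians and the dashed line is the median of all genes. Most points lie near 0 except in the spleen at 7 d, where 29 were called higher and 18 lower, and Cox6b2 lies far above the rest at 2.28.

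Array medians differed between most sets, from 41.2 to 42.4 in the liver at 4 h up to 109 to 112 in the spleen at 7 d. Those of the spleen at 4 h (86.9 to 89.1) and of the marrow (86.1 to 89.4) overlapped. Levels were compared only within a set. The cell makeup of the tissue also moved with treatment. In the 7 d spleen all 17 erythroid marker genes rose (mean level 8.31 to 9.79 in vehicle arrays and 11.9 to 12.3 in 2BE arrays), as did all 22 cell cycle genes, while all 9 B cell markers and 7 of 9 T cell markers fell; 1 T cell marker, Cd8a, rose (0.49). Among other cell markers there, 8 of 14 macrophage genes fell and 1 rose, none of 13 neutrophil genes was called by limma (0 with an unadjusted p under 0.05), 8 of 19 muscle genes rose and 2 fell, and adipocyte means were 5.86 to 7.78 with vehicle and 5.88 to 6.10 with 2BE. Pancreatic acinar markers were called higher for 6 of 9 genes (mean level 6.23 to 6.41 against 6.54 to 6.85) and hepatocyte markers for 6 of 12 (5.96 to 6.36 against 6.11 to 6.52, overlapping). Of all genes, 32.4% were called higher in this set. The hepatocyte and muscle means of both arms, and the acinar means of the vehicle arrays, lay below the set median of 6.80. In the marrow 15 of 17 erythroid genes rose (mean level 11.1 to 11.5 against 11.7 to 11.9), 16 of 22 cell cycle genes rose and all 9 B cell markers fell; in the spleen at 4 h no erythroid marker was called (2 with an unadjusted p under 0.05). In such pieces of tissue, fewer cells of a type and less RNA per cell cannot be told apart. The part of these shifts in the values of the respiratory chain genes was not tested.

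The balance of calls in the 7 d spleen is given by class as counts and medians, with no test between classes. For comparison, 32.4% of all genes were called higher and 32.0% lower there, with a median of 0.05. Most called genes of complex III, complex IV and ATP synthase were higher with 2BE, those of complex I were divided, and most called assembly factors were lower. Complex III had 4 of 8 genes called higher and none lower (median 0.22), complex IV 9 higher and 1 lower of 19 (median 0.16), and ATP synthase 7 higher and 2 lower of 17 (median 0.14). Complex I had 6 higher and 9 lower of 34 (median -0.02), complex II 1 and 1 of 4 (median 0.05), and the assembly factors 2 higher and 5 lower of 12 (median -0.16). The arms did not overlap for 28 members with 2BE higher and 13 with 2BE lower, where 20.0% and 26.7% of all genes were apart in those directions. These counts move with the scaling: with each array centred on its median, 45 members were called higher and 12 lower, and the median of all genes moved from 0.05 to 0.13. Without vehicle replicate 1, the array with the lowest erythroid mean, 25 members were called higher and 18 lower.

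**Figure D2:**
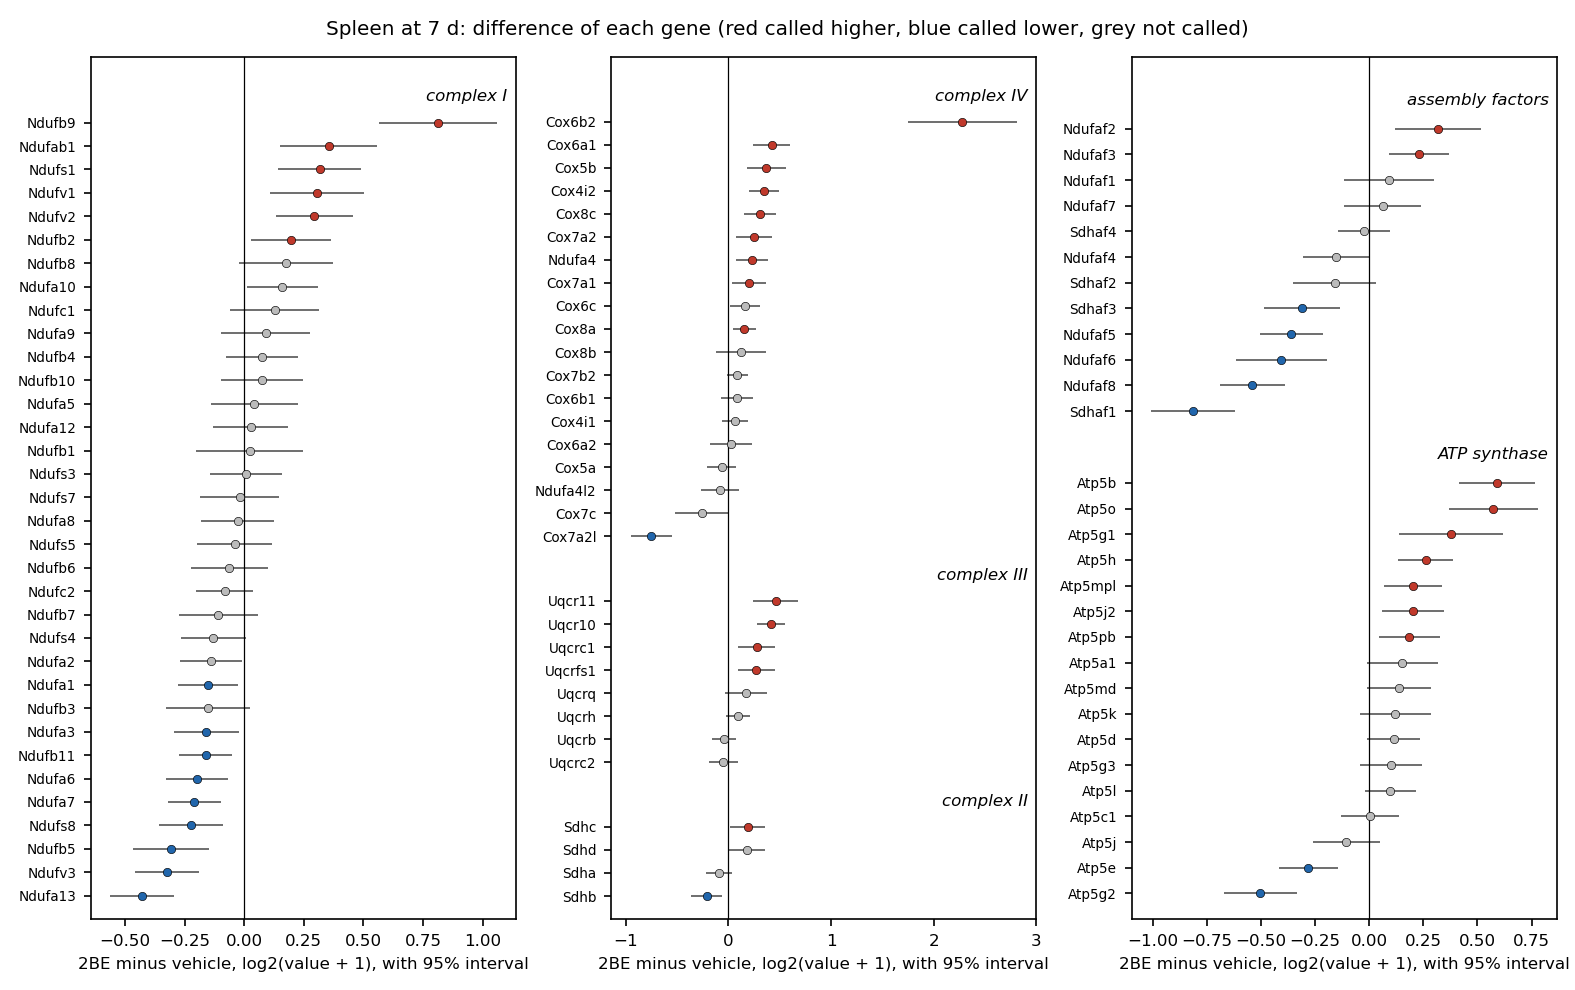
Difference of each of the 94 members in the spleen at 7 d, 2BE minus vehicle on the log2(value + 1) scale, with 95% intervals, grouped by complex. Red points were called higher, blue points lower and grey points were not called. Of the called points, most are red in complexes III and IV and ATP synthase. Complex I and the assembly factors have more blue than red points.

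Complex I genes moved in both directions in the 7 d spleen, with Ndufb9 up and Ndufa13 down the furthest. Ndufb9, a subunit of the membrane arm, read 11.20, 11.29, 11.16, 11.36 and 11.21 in the vehicle arrays (replicates 1 to 5, as in every list that follows) and 12.31, 12.00, 11.89, 12.06 and 12.01 in the 2BE arrays. All 2BE arrays were above all vehicle arrays, and the difference of 0.81 (SE 0.12, n = 5 and 5, 1.76-fold, limma adjusted p = 9.12e-06) was the largest rise in complex I. The NADH-oxidising tip of the complex was represented by Ndufv1 (0.30, SE 0.09), Ndufv2 (0.29, SE 0.08) and Ndufs1 (0.32, SE 0.08), which carry its flavin and iron-sulphur centres and all rose with the arms apart. Ndufv3, an accessory subunit of the same tip, fell by 0.32 (SE 0.06), so members of 1 module moved in opposite directions. Ndufab1, the mitochondrial acyl carrier protein, rose by 0.35 (SE 0.10), but another probe set of the gene read -0.50, and the mean of its probe sets (0.11, adjusted p = 0.132) was not called. The sixth rise was that of Ndufb2 (0.20, SE 0.08, adjusted p = 0.0403), a call lost without vehicle replicate 1, 2 or 3 or without 2BE replicate 1, 4 or 5 (adjusted p = 0.0504 to 0.0978).

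Ndufa13, a subunit also known as GRIM-19, read 11.79, 11.85, 11.74, 11.75 and 11.82 with vehicle and 11.41, 11.21, 11.40, 11.30 and 11.47 with 2BE. The arms were apart and the gene fell by 0.43 (SE 0.06, 1.35-fold, adjusted p = 1.22e-05). The other complex I falls were smaller: Ndufb5 by 0.31 and Ndufs8, an iron-sulphur subunit next to the quinone site, by 0.22. Ndufa7, Ndufa6, Ndufb11, Ndufa3 and Ndufa1 fell by between 0.15 and 0.21. The falls of Ndufs8, Ndufa6, Ndufb11, Ndufa3 and Ndufa1 were no longer called once arrays were centred on their medians. For Ndufb5 and Ndufa1 the arms overlapped. The other 19 of the 34 complex I genes did not pass the test.

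The 4 complex II genes, which also serve the citric acid cycle, showed small differences that did not share a direction. Sdhb, the iron-sulphur subunit, read 11.15, 11.09, 10.96, 11.05 and 11.05 with vehicle and 10.98, 10.66, 10.70, 10.90 and 11.02 with 2BE. It fell by 0.21 (SE 0.07, adjusted p = 0.0168) with overlapping arms. Sdhc, a membrane anchor, read 10.40, 10.43, 10.45, 10.39 and 10.35 against 10.74, 10.53, 10.47, 10.53 and 10.69 and rose by 0.19 (SE 0.08, adjusted p = 0.0477), just on the called side of the threshold. Sdhd, the other anchor, differed by 0.18 (SE 0.08, adjusted p = 0.0636) and the flavoprotein Sdha by -0.09 (SE 0.06, adjusted p = 0.193), neither past the threshold. The call of Sdhb was lost with centred arrays and the calls of Sdhb and Sdhc were lost when single arrays were left out.

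Complex III genes rose or did not pass the test. Uqcr11, a small accessory subunit, read 10.15, 10.39, 10.16, 10.34 and 10.23 with vehicle and 10.89, 10.57, 10.52, 10.73 and 10.85 with 2BE, a rise of 0.46 (SE 0.11, 1.37-fold, adjusted p = 0.000978) with the arms apart. Uqcr10, another small subunit, read 10.70, 10.86, 10.75, 10.78 and 10.71 against 11.26, 11.19, 11.07, 11.23 and 11.12. It rose by 0.42 (SE 0.06, adjusted p = 1.91e-05), but its other 2 probe sets read -0.11 and 0.13. The mean of all its probe sets, with the one used among them (0.14, adjusted p = 0.0531), was not called. The core subunit Uqcrc1 rose by 0.28 (SE 0.08) and the Rieske iron-sulphur protein Uqcrfs1 by 0.27 (SE 0.09, arms overlapping). Among the classes of members, only complex III had a mean level over its genes that did not overlap between arms. It was 11.24 to 11.32 in vehicle arrays and 11.34 to 11.59 in 2BE arrays, a narrow gap with 1 probe set standing for each gene. The separation was not particular to complex III. The mean of 14 other respiratory chain components outside the prefixes was also apart in this set (9.710 to 9.739 with vehicle and 9.809 to 10.002 with 2BE).

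Complex IV held the largest change of any member, in Cox6b2, an isoform known mainly from testis that sits at the interface of the cytochrome oxidase dimer. Cox6b2 in the spleen at 7 d read 7.63, 8.30, 8.24, 8.51 and 8.17 with vehicle and 10.67, 10.60, 10.20, 10.49 and 10.29 with 2BE. Every 2BE array stood well above every vehicle array, and the gene rose by 2.28 (SE 0.25, 95% interval 1.75 to 2.81, 4.85-fold, limma adjusted p = 5.11e-07). Its ubiquitous partner Cox6b1 read 12.70, 12.85, 12.75, 12.78 and 12.74 with vehicle and 12.94, 12.77, 12.77, 12.82 and 12.94 with 2BE. The arms of Cox6b1 overlapped and its difference of 0.08 (SE 0.07, 95% interval -0.07 to 0.24, adjusted p = 0.341) was not called. Vehicle replicate 1, which had the lowest Cox6b2 level of the set, also had the lowest erythroid marker mean (8.31, against 9.52 to 9.79 in the other vehicle arrays). Cox6b2 rests on 1 probe set, so no other probe set was there to compare.

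Cox6b2 also rose in the marrow, by less. There it read 9.83, 10.04, 9.92, 9.93 and 9.84 with vehicle and 10.61, 10.56, 10.44, 10.59 and 10.39 with 2BE, with the arms apart (0.60, SE 0.06, 1.52-fold, adjusted p = 2.28e-05). At 4 h in the spleen it read 9.26, 8.34, 9.43 and 8.35 with vehicle and 9.27, 8.58, 9.96 and 9.96 with 2BE; arrays of both arms were spread over more than a unit and the difference of 0.60 (SE 0.28, adjusted p = 0.273) was not called. In that set vehicle replicates 1 and 3, with the higher Cox6b2 levels, had erythroid means of 10.7 and 11.3, and the other vehicle arrays 10.2 and 10.3. Of the 2BE arrays, replicates 3 and 4 had the higher Cox6b2 levels and erythroid means of 10.8 and 11.0, and the others 10.3 and 10.2. Cell cycle means (9.80 to 11.06) and neutrophil means (9.24 to 12.70) also varied over these vehicle arrays. A link of the Cox6b2 level with any of these means was not tested in any set. In the liver the levels were low: 5.86, 5.09 and 5.47 with vehicle against 5.47, 5.71, 5.61 and 5.21 with 2BE at 4 h (0.03, adjusted p = 0.95), and 5.48, 5.49, 5.47 and 5.54 against 5.65, 5.59, 5.50, 5.71 and 5.58 at 7 d (0.11, adjusted p = 0.821). The 7 d liver level lay below the median of all probe sets of that set. Cox6b1 was called in none of the 5 sets, with differences from -0.05 to 0.08.

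**Figure D3:**
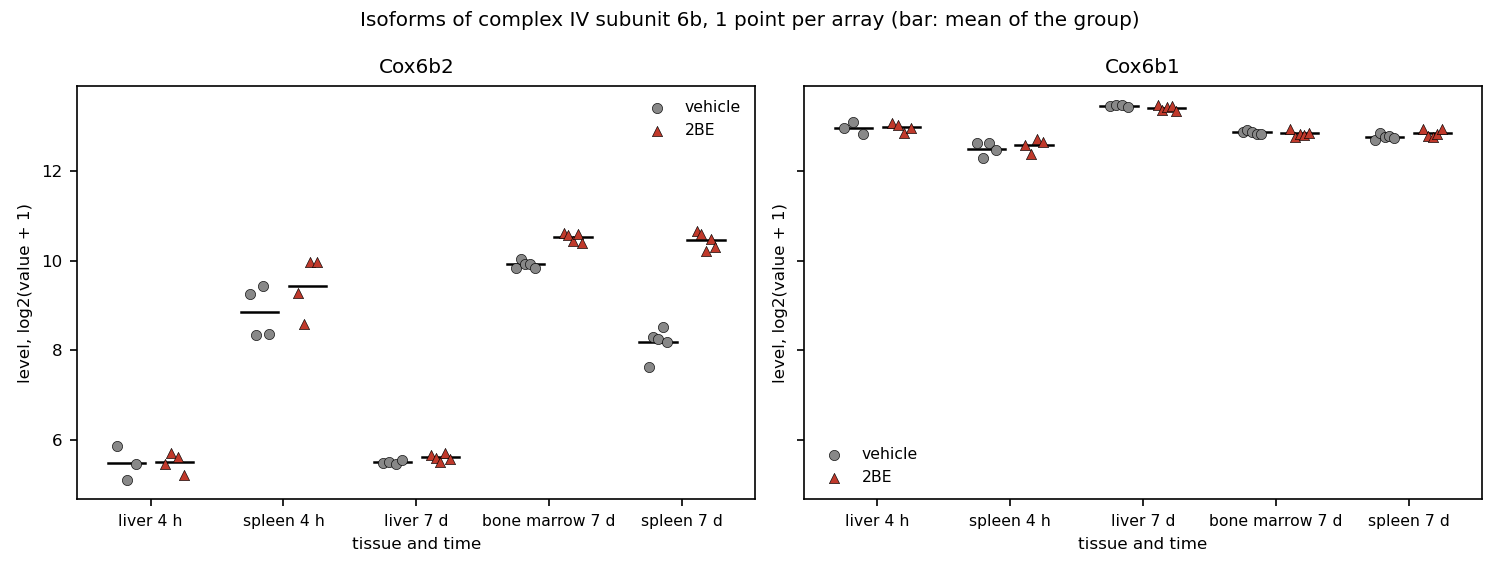
Levels of Cox6b2 and Cox6b1 on each array, log2(value + 1), by tissue and time, on a shared axis; points are arrays and bars are group means. Cox6b2 separates vehicle from 2BE in the spleen at 7 d (7.63 to 8.51 against 10.20 to 10.67) and in the marrow, whereas the Cox6b1 points of both arms lie together; the level of one probe set is not comparable with that of the other.

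The other restricted isoforms of complex IV moved less, and not as a group. In the 7 d spleen Cox4i2 read 6.81, 6.74, 6.67, 6.70 and 6.45 with vehicle and 7.03, 7.12, 7.00, 7.09 and 6.83 with 2BE. This isoform, known from lung, rose by 0.34 (SE 0.07, adjusted p = 0.000325). Its ubiquitous partner Cox4i1 differed by 0.06 (adjusted p = 0.348). Cox4i2 rests on 1 probe set, and its vehicle mean of 6.67 lay below the set median of 6.80. Cox8c, known from testis, read 8.16, 8.37, 8.37, 8.38 and 8.22 against 8.57, 8.85, 8.53, 8.63 and 8.45, a rise of 0.31 (SE 0.07, adjusted p = 0.00156); the ubiquitous Cox8a rose by 0.16 (adjusted p = 0.0175), or 0.0541 without 2BE replicate 1. In these pairs the arms were apart for Cox4i2 and Cox8c and overlapped for Cox8a. The muscle isoform Cox7a1 was called higher (0.20, adjusted p = 0.035) at a level of 4.56, below the set median, and was no longer called after quantile normalization (0.07, adjusted p = 0.467); its partner Cox7a2 rose by 0.25 (adjusted p = 0.0143). Differences of the muscle isoforms Cox6a2 (0.02) and Cox8b (0.12), of the testis isoform Cox7b2 (0.08) and of Ndufa4l2 (-0.08) did not pass the test. In all, 4 of these 8 isoforms were called higher and none lower, where 32.4% of all genes were called higher and 32.0% lower. Ndufa4 itself rose by 0.23 (SE 0.07, adjusted p = 0.0129), and Ndufa4l2, which is known as a hypoxia-induced gene, was called in none of the 5 sets, with differences between -0.10 and 0.06.

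Among the ubiquitous complex IV subunits, Cox6a1 rose most. It read 13.35, 13.44, 13.39, 13.42 and 13.40 with vehicle and 13.87, 13.86, 13.82, 13.83 and 13.73 with 2BE, with the arms apart (0.42, SE 0.08, 1.34-fold, adjusted p = 0.000306). Cox5b rose by 0.37 (SE 0.09), and its other 5 probe sets read between 0.26 and 0.41. The only complex IV fall was in Cox7a2l, which is not a catalytic subunit but a factor that joins complexes III and IV into supercomplexes. Cox7a2l read 11.96, 11.81, 11.82, 11.80 and 11.76 with vehicle and 11.02, 10.81, 11.19, 11.05 and 11.31 with 2BE. All 2BE arrays were below all vehicle arrays, the fall was 0.75 (SE 0.10, 1.69-fold, adjusted p = 2.16e-06), and its other 2 probe sets read -0.90 and -0.70. Cox5a (-0.07) was not called.

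Of the 17 ATP synthase genes 7 rose, led by Atp5b and Atp5o, 2 fell and 8 did not pass the test. Atp5b, the catalytic beta subunit, read 12.76, 12.82, 12.73, 12.77 and 12.78 with vehicle and 13.46, 13.47, 13.12, 13.36 and 13.42 with 2BE, a rise of 0.59 (SE 0.08, 1.51-fold, adjusted p = 7.32e-06). Atp5o, the oligomycin sensitivity protein of the outer stalk, read 10.57, 10.71, 10.61, 10.68 and 10.62 against 11.35, 11.18, 11.01, 11.33 and 11.17, a rise of 0.57 (SE 0.10, 1.49-fold, adjusted p = 5.77e-05). For both genes the arms were far apart relative to the spread of the arrays. Atp5h (0.26), Atp5mpl (0.20), Atp5j2 (0.20) and Atp5pb (0.19) rose by less. The Atp5pb call was lost after quantile normalization (adjusted p = 0.0645) and without vehicle replicate 1 (0.0648) or 2BE replicate 1 (0.0521). The epsilon subunit Atp5e of the central stalk fell by 0.28 (SE 0.06). The head and central stalk subunits Atp5a1 (0.15, with -0.21 and 0.12 at its other probe sets), Atp5c1 (0.004) and Atp5d (0.11), and Atp5j of the outer stalk (-0.10), were not called.

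Atp5g1, Atp5g2 and Atp5g3 encode the same mature c subunit of the rotor ring behind different targeting sequences. Atp5g1 read 10.40, 10.49, 10.32, 10.40 and 10.46 with vehicle and 10.97, 10.74, 10.51, 10.84 and 10.90 with 2BE, and rose by 0.38 (SE 0.11, adjusted p = 0.0075). Atp5g2 read 11.59, 11.61, 11.53, 11.58 and 11.61 against 11.12, 10.83, 11.00, 11.05 and 11.41, and fell by 0.50 (SE 0.08, 1.42-fold, adjusted p = 2.53e-05). The arms were apart for both genes, in opposite directions. Atp5g3 differed by 0.10 (SE 0.07, 95% interval -0.04 to 0.25, adjusted p = 0.199) and was not called.

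Of the 12 assembly factors 5 fell and 2 rose in the 7 d spleen. Sdhaf1, which helps to place the iron-sulphur clusters of Sdhb, read 9.19, 8.98, 9.02, 8.95 and 9.09 with vehicle and 8.11, 8.10, 8.21, 8.17 and 8.57 with 2BE. The arms were apart, and the fall of 0.81 (SE 0.09, 1.76-fold, adjusted p = 5.69e-07) was the largest among the members. Ndufaf8, which acts with Ndufaf5 in early complex I assembly, read 10.23, 10.40, 10.33, 10.37 and 10.32 against 9.87, 9.58, 9.88, 9.72 and 9.89, a fall of 0.54 (SE 0.07, 1.45-fold, adjusted p = 3.16e-06). Ndufaf5 itself fell by 0.36 (SE 0.07, adjusted p = 0.000197), with the arms apart. Ndufaf6 fell by 0.41 (SE 0.10) and Sdhaf3 by 0.31 (SE 0.08), both with overlapping arms. In the other direction Ndufaf2 rose by 0.32 (SE 0.09) and Ndufaf3 by 0.23 (SE 0.07). Of the 47 members called in this set, 26 had other probe sets, 51 in all; 45 of these had the sign of the probe set used and 6 the opposite sign, 1 each for Ndufab1, Ndufb11, Ndufs8, Uqcr10, Atp5g1 and Sdhaf3.

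**Figure D4:**
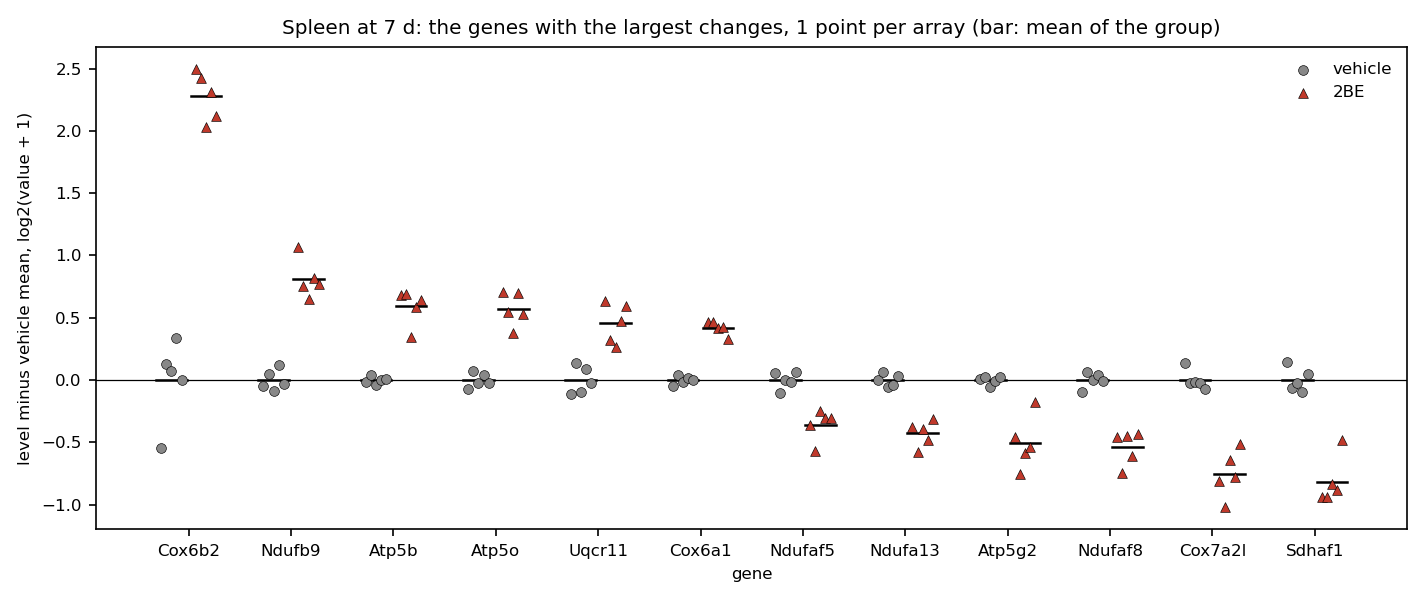
The 6 members that rose most and 6 that fell with the arms apart in the spleen at 7 d, on each of the 5 vehicle and 5 2BE arrays, as the difference from the vehicle mean on the log2(value + 1) scale. Points are arrays and bars group means; for each of these 12 genes all 2BE points lie on one side of all vehicle points, with Cox6b2 the highest and Sdhaf1 and Cox7a2l the lowest.

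Promoter letters were also counted by direction of change. The NRF1 letters were in 3 of the 23 called-higher members with a promoter, 2 of the 17 called lower and 4 of the 38 not called in the 7 d spleen. The ETS letters were in 4, 6 and 12 of these. These counts are descriptions of the windows only. NRF1 letters were held by Uqcr11, Uqcrc1 and Cox6a1 among the genes that rose and by Atp5g2 and Ndufaf5 among those that fell.

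In the bone marrow at 7 d Cox6b2 stood alone in size, and the other 6 calls were at most 0.28. Atp5o read 11.47, 11.46, 11.40, 11.44 and 11.40 with vehicle and 11.62, 11.51, 11.64, 11.60 and 11.62 with 2BE, and rose by 0.16 (SE 0.05, adjusted p = 0.025) with the arms apart. Ndufb6, a membrane arm subunit of complex I, read 10.79, 10.46, 10.61, 10.64 and 10.34 against 10.73, 10.65, 11.00, 11.02 and 10.85. It rose by 0.28 (SE 0.09, adjusted p = 0.0402), with overlapping arms and 0.01 at its other probe set. Ndufa5 (0.22, SE 0.06), Ndufb2 (0.21, SE 0.06) and Atp5g1 (0.17, SE 0.05) also rose, and Sdhaf2, which inserts the flavin of Sdha, fell by 0.20 (SE 0.06), all with overlapping arms. Of the 7 calls, that of Cox6b2 held when any single array was left out, and each of the other 6 was lost when at least 1 array was left out. Without 2BE replicate 2 the count of members called was 13, and without vehicle replicate 5 or 2BE replicate 4 it was 1. With each array centred on its median 15 members were called higher and none lower.

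The 3 calls in the spleen at 4 h were small. Ndufaf4, a complex I assembly factor, read between 8.96 and 9.10 on the 4 vehicle arrays and 9.44, 9.23, 9.48 and 9.31 with 2BE, a rise of 0.33 (SE 0.08, 1.25-fold, adjusted p = 0.0241) with the arms apart. Ndufb2 read 9.04, 9.06, 9.21 and 8.88 against 9.44, 9.15, 9.33 and 9.56 and rose by 0.32 (SE 0.09, adjusted p = 0.0424). Ndufaf3, which works with Ndufaf4, read 8.74, 8.71, 8.87 and 8.57 against 8.58, 8.31, 8.47 and 8.47 and fell by 0.26 (SE 0.07, adjusted p = 0.045). The arms overlapped for Ndufb2 and Ndufaf3. Each of the 3 calls was lost when one or another array was left out, and none was made when only these 8 arrays were fitted. The largest complex I difference there, Ndufv1 (0.35, SE 0.10, adjusted p = 0.0663), did not pass the test. In this set 1 vehicle array had a neutrophil marker mean of 12.7, against 9.24 to 10.7 in the other vehicle arrays, and 1 2BE array an adipocyte marker mean of 7.59, against 5.60 to 6.06.

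In the liver no member was called by limma at either time; 3 members at 4 h and 9 at 7 d had an unadjusted p under 0.05. With the replicate block, which pairs the 4 h liver arrays, again no member was called at 4 h, 2 had an unadjusted p under 0.05 and the lowest adjusted p was 0.155. Values without the block follow. The widest difference at 4 h was that of Ndufaf6, which read 8.24, 8.53 and 7.81 with vehicle and 8.64, 8.41, 8.52 and 8.75 with 2BE (0.39, SE 0.13, adjusted p = 0.116, arms overlapping). Ndufaf4 differed by 0.33 (SE 0.12, adjusted p = 0.148), Sdhaf1 by -0.27 (adjusted p = 0.361), Cox8c by -0.17 (adjusted p = 0.239) and Ndufs4 by 0.15 (adjusted p = 0.31). At 7 d Cox7c, a small complex IV subunit, read 6.17, 6.39, 6.47 and 6.47 with vehicle and 6.57, 6.64, 6.68, 6.98 and 7.19 with 2BE (0.44, SE 0.16, adjusted p = 0.266). Its arms were apart, though the test over all genes did not call it. Its 95% interval was the widest of the members in this set (half-width 0.34). Its other probe set differed by 0.24 at a vehicle mean of 4.41, below the set median of 5.70. Ndufaf6 (0.35, adjusted p = 0.21), Cox7a1 (0.42, adjusted p = 0.103) and Ndufb6 (-0.24, adjusted p = 0.181) likewise did not pass. The 95% interval lay within 0.5 of 0 on the log2 scale for 91 of the 94 members at each time, which limits how large an undetected difference those members could have had in these samples.

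Tests of the differences between responses set the sets side by side. In the spleen the 7 d response exceeded the 4 h response for 9 members and was below it for 11, where 25.6% of all genes were called in each direction. Cox6b2 responded more at 7 d by 1.68 (SE 0.38, adjusted p = 0.00157), Ndufb9 by 0.76 (SE 0.18) and Atp5b by 0.47 (SE 0.13). Ndufaf3 was lower with 2BE at 4 h and higher at 7 d, a difference of 0.49 (SE 0.10, adjusted p = 0.000623). Sdhaf1 had a response 0.96 lower at 7 d than at 4 h (-0.96, SE 0.14, adjusted p = 3.16e-05), followed by Cox7a2l (-0.65), Ndufaf6 (-0.52) and Atp5g2 (-0.51). In the liver no member's response was called different between 7 d and 4 h, where 0.269% of all genes were called and 1 member had an unadjusted p under 0.05.

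At 4 h no member was called between the spleen and liver responses (1.78% of all genes; 2 members with an unadjusted p under 0.05). At 7 d the spleen response was above that of the liver for 27 members and below it for 16, beside 27.4% and 29.6% of all genes. The widest were Cox6b2 (2.17, SE 0.15, adjusted p = 8.01e-13), Ndufb9 (0.87), Atp5o (0.69) and Atp5b (0.59) above, and Sdhaf1 (-0.85), Cox7a2l (-0.77), Ndufaf6 (-0.76) and Cox7c (-0.69) below. The marrow response was above that of the spleen for 13 members and below it for 21, beside 25.0% and 19.9% of all genes. Cox6b2 (-1.68, SE 0.15, adjusted p = 1.53e-10), Ndufb9 (-0.70), Atp5b (-0.49) and Atp5o (-0.41) responded less in marrow. Sdhaf1 (0.70), Cox7a2l (0.67), Ndufaf8 (0.41) and Ndufaf6 (0.38), which were lower with 2BE in the spleen, had responses nearer 0 there. The comparisons that involve the 7 d spleen share its 10 arrays. With arrays centred on their medians these counts were 22 and 8 for time in the spleen, 47 and 11 for spleen over liver and 9 and 30 for marrow over spleen.

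**Figure D5:**
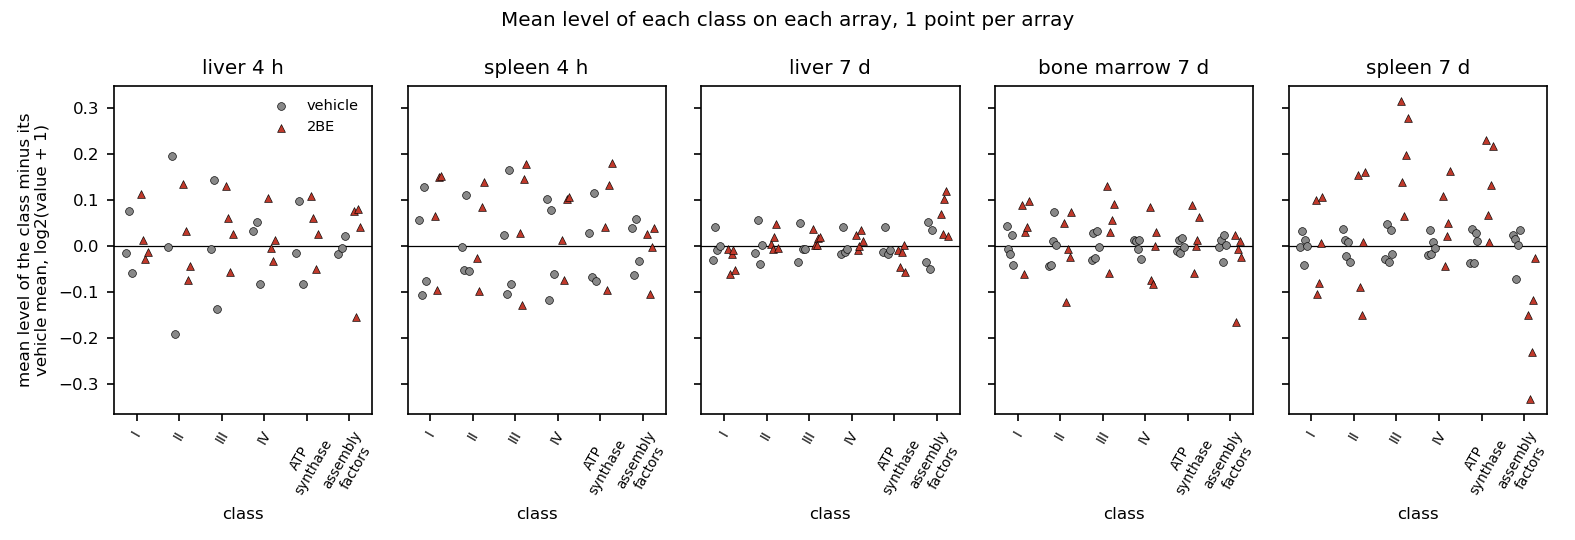
Mean level of each class of genes on each array, as the difference from the vehicle mean of its set on the log2(value + 1) scale, for the 5 tissue and time sets. The complex IV mean covers 11 genes, without the 8 restricted isoforms. Complex III in the spleen at 7 d is the class whose 2BE arrays all lie above its vehicle arrays there, by a narrow margin, while most other class means overlap between arms.

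Other mitochondrial genes gave a mixed picture in the 7 d spleen. Beside the counts that follow, 32.4% of all genes were called higher and 32.0% lower in this set. Of 14 further respiratory chain components, 7 rose and 2 fell (median 0.17). Atpif1, the inhibitor that stops ATP synthase from running backwards, rose by 1.67 (SE 0.16) and cytochrome c (Cycs) by 0.57 (SE 0.11), while the glycerol phosphate dehydrogenase Gpd2 fell by 0.76 (SE 0.08) and Higd2a by 0.39 (SE 0.07). Of 27 assembly factors outside the prefixes 5 rose and 12 fell (median -0.15): the copper chaperone Cox11 rose by 1.27 (SE 0.12), and Cox16 fell by 0.72 (SE 0.08) and Surf1 by 0.56 (SE 0.09), both factors of complex IV assembly. Among 11 genes of coenzyme Q synthesis 4 rose, led by Coq10b (0.68), and 2 fell, Coq8a (-0.93) and Coq2 (-0.55). The citric acid cycle and pyruvate genes were evenly divided (10 rose and 9 fell of 22), with pyruvate carboxylase Pcx up by 1.38 and Idh3a by 0.69. Of 17 regulators of mitochondrial biogenesis 5 rose and 9 fell (median -0.28), among them Tfb1m (0.87), which modifies mitochondrial ribosomal RNA, and Tfam (-0.56) and Polg (-0.62), which maintain mitochondrial DNA. For 21 protein import genes the counts were 8 and 2 (median 0.12), with Timm8a1 at 0.67 and Tomm34 at -0.60.

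In the marrow Atpif1 (0.40, SE 0.05), Cox11 (0.33, SE 0.07), Pcx (0.40, SE 0.08) and Tfb1m (0.45, SE 0.06) rose. Beside the marrow counts that follow, 9.40% of all genes were called higher and 10.7% lower. Among 22 citric acid cycle and pyruvate genes 7 rose and none fell. Of the 17 regulators 3 fell there and 1, Tfb1m, rose; the falls were led by Tfb2m (-0.31, SE 0.05) and Polg (-0.22, SE 0.06). Gpd2 (-0.21) was the 1 other chain component that fell beside 3 that rose, and Cox16 (-0.20) and Surf1 (-0.16) were the 2 outside assembly factors that fell beside 4 that rose. Coq8a (-0.17) fell as the 1 coenzyme Q gene called, and of the import genes 2 rose and 1 fell. In the liver, where no chain subunit was called, Ppargc1a, a coactivator known to drive mitochondrial gene expression, rose at both times, by 1.91 at 4 h (SE 0.28, adjusted p = 0.00131) and by 1.39 at 7 d (SE 0.25, adjusted p = 0.0142). The fumarase gene Fh1 rose by 0.80 (SE 0.11) at 4 h and 0.58 (SE 0.09) at 7 d, Idh3a by 0.73 (SE 0.11) at 4 h and Coq10b by 1.98 (SE 0.26) at 7 d. Of the regulators, Polg2 (-0.62, SE 0.16, adjusted p = 0.0333) and Tfam (-0.30, SE 0.08, adjusted p = 0.0473) were called lower at 4 h. With the replicate block, which pairs these arrays, neither was (adjusted p = 0.108 for Polg2 and 0.141 for Tfam). Ppargc1a (1.78, limma adjusted p = 0.0173), Fh1 (0.75, adjusted p = 0.00284) and Idh3a (0.69, adjusted p = 0.0207) were still called at 4 h with the block. Coq10b also rose in the spleen at 4 h, by 0.53 (SE 0.08). Hepatocyte marker means in the liver were apart between arms at 4 h (14.16 to 14.25 with vehicle and 14.36 to 14.41 with 2BE) and overlapped at 7 d (14.16 to 14.23 against 14.17 to 14.28). The hepatocyte genes did not rise as a group at 4 h: 6 of 12 were higher and 6 lower with 2BE (median 0.009), and 1 was called higher. Tat had the largest rise among them. Macrophage marker means in the liver were 8.15 to 8.31 with vehicle and 8.72 to 9.18 with 2BE at 7 d, with 14 of 14 genes higher and 3 called; their part in the liver values was not tested.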

How the data were processed

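Total RNA of 44 tissue samples was hybridised to 1-colour Affymetrix mouse arrays after biotin labelling, per the labels' protocols. The authors deposited intensity values on a linear scale from 6.16 to 47797.8 with no missing value; the submitters' processing notes name RMA without a version. From the deposited intensities log2(value + 1) was computed with no further normalization and no filter on low values. Of 45101 probe sets, 64 controls, 9160 without a symbol and 932 with several symbols were left out. Probe sets were named from the platform annotation and its gene IDs were looked up (34741 IDs, 0 symbols changed), leaving 18193 genes. The 94 members had 185 probe sets with a single symbol; 10 more with several symbols were left out.

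Group means of a tissue, or of a time point for differences between tissues, were fitted with lmFit and eBayes of limma 3.58.1 (R 4.3.3), two-sided. The procedure was tested on simulated data. Members and gene lists were chosen with earlier results of these data known. In each set the genes named are up to 6 called members per direction with the arms apart and a level above the set median, the largest difference per class, the restricted isoforms with partners, the 4 Sdh genes, up to 4 members per direction for each difference of responses, and up to 2 per direction for each list; other called members are given to complete a class and were chosen after their values were seen. In the liver at 4 h same-numbered arrays deviated together in all 3 pairs (r = 0.132 to 0.282). In no other set did all pairs do so. The main fit took no account of pairs in any set. For the liver at 4 h, calls with the replicate block, which pairs these arrays, are also given. Alternatives were another pseudocount, a filter on low values, centring, quantile normalization, the mean of probe sets, trend and robust options, array weights, only the arrays compared, the replicate block and leaving out each array.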

Additional observations from a re-analysis of the deposited data

Results flagged for a closer look

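Single arrays stood away from the others of their group in 7 of 133 sets of values, each over a group of 4 or 5 arrays, by Dixon's test at the 95% level, which chance would do in about 1 set in 20. Sdhaf1 read 8.57 in the spleen 2BE array of replicate 5 at 7 d (others 8.10 to 8.21), and Cox7a2l read 11.96 in the spleen vehicle array of replicate 1 at 7 d (others 11.76 to 11.82). Atp5o read 11.51 in the marrow 2BE array of replicate 2 (others 11.60 to 11.64) and Sdhb 11.38 in the marrow vehicle array of replicate 2 (others 11.36 to 11.37). The assembly factor mean was 8.35 in the liver 2BE array of replicate 2 at 4 h (others 8.54 to 8.58) and 8.23 in the marrow 2BE array of replicate 2 (others 8.37 to 8.42). The ATP synthase mean was 12.85 in the liver vehicle array of replicate 2 at 7 d (others 12.80).

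Among the responses that the test called different between times or tissues, the 4 widest in each direction were as follows, on the log2(value + 1) scale. In the spleen, 7 d minus 4 h, they were 1.68 for Cox6b2, 0.76 for Ndufb9, 0.49 for Ndufaf3, 0.47 for Atp5b, -0.51 for Atp5g2, -0.52 for Ndufaf6, -0.65 for Cox7a2l and -0.96 for Sdhaf1. At 7 d, spleen minus liver, they were 2.17 for Cox6b2, 0.87 for Ndufb9, 0.69 for Atp5o, 0.59 for Atp5b, -0.69 for Cox7c, -0.76 for Ndufaf6, -0.77 for Cox7a2l and -0.85 for Sdhaf1. At 7 d, marrow minus spleen, they were 0.70 for Sdhaf1, 0.67 for Cox7a2l, 0.41 for Ndufaf8, 0.38 for Ndufaf6, -0.41 for Atp5o, -0.49 for Atp5b, -0.70 for Ndufb9 and -1.68 for Cox6b2.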

How the results depend on the processing

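No called difference of the members recomputed changed sign under the alternatives run. Of differences not called, that of Ndufs4 in the liver at 4 h (0.15) was -0.04 with the mean of probe sets, and the members' median there (0.02) was -0.002 after quantile normalization. The balance of calls turned in 1 comparison, the spleen response at 7 d against 4 h, with 9 members above and 11 below as reported and 22 above and 8 below with centred arrays. In the spleen at 7 d the count of members called was 46 to 57 over the alternatives that kept all arrays (47 as reported) and 43 to 50 with single arrays left out. Calls lost there were those of Ndufab1, Uqcr10 and Sdhaf3 with the mean of probe sets, of Cox7a1 and Atp5pb with quantile normalization, and of Sdhb, Ndufa1, Ndufa3, Ndufa6, Ndufb11 and Ndufs8 with centred arrays. Leaving out single arrays ended, for at least 1 array each, the calls of Ndufa1, Ndufa3, Ndufb2, Sdhb, Sdhc, Cox7a1, Cox8a and Atp5pb. In the marrow (7 as reported) the count was 13 with a pseudocount of 16, 13 with the filter on low values, 15 with centred arrays, 13 with array weights and 1 to 13 with single arrays left out. In the spleen at 4 h (3 as reported) it was 0 with only the arrays compared and 0 to 5 with single arrays left out. In the liver it was 0 to 1 at 4 h with single arrays left out, the 1 without vehicle replicate 2, and 2 at 7 d with array weights. With the replicate block the count was 1 in the spleen at 4 h, 1 in the liver at 7 d and 4 in marrow. It was 0 in the liver at 4 h, where same-numbered arrays deviated together but no label pairs them. The block also ended the calls of Ndufa1 (adjusted p = 0.057) and Ndufb2 (adjusted p = 0.0643) in the spleen at 7 d. The cause of these changes was not tested. RMA is the only upstream step named, and the number of arrays limits what small differences could be called.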
